A study of Homo sapiens with 24 samples.

Results

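The control siRNA series of a study of mRNA turnover in U2OS cells, an established human osteosarcoma line bought from ATCC, consists of 6 of the study's 24 cytoplasmic RNA sequencing libraries. They are the libraries whose label names the control knockdown, taken 0, 0.5, 1, 2, 4 and 6 h into a block of transcription by actinomycin D. The cells had received a control siRNA by lipid transfection (RNAiMAX). Another 6 libraries each came from cells given an siRNA labelled for the long isoform of PAN3, one labelled for the short isoform, or both, at the same times and with the same drug and transfection reagent. PAN3 is the partner that links the deadenylase PAN2 to the poly(A) tail, and the design addresses how its isoforms shape mRNA decay. The control course is the baseline against which that question is set. Each time had 1 library, and the labels do not say whether the 6 dishes came from separate transfections, so p-values measure only the scatter of these libraries about a course.

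Actinomycin D binds DNA and stops RNA polymerases, so mRNA already in the cytoplasm can only be lost. In mammalian cells most loss begins with removal of the poly(A) tail by PAN2-PAN3 and CCR4-NOT, followed by decapping and degradation from the 5′ end or by degradation from the 3′ end in the exosome. Messages of growth-factor-induced transcription factors and of many feedback regulators are known for fast loss, and those of housekeeping enzymes and ribosomal proteins for slow loss. The deposited values are FPKM, fragment numbers scaled for transcript length and for library size. The labels mention no added reference RNA, so an mRNA lost at the average pace keeps its FPKM, a slower one gains, and only relative loss can be read. In bulk RNA, loss of message per cell and loss of the cells that carry it cannot be told apart.

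The libraries resembled each other in size of signal and differed in single estimates. Their FPKM summed to between 335935.9 and 384287.0, and the number of genes at 1 FPKM or more went from 9720 at 0 h to 9062 at 6 h. Of 10 markers of mesenchymal or bone lineage, CD44 (58.3 to 66.0 FPKM) and VIM were abundant, while COL1A2, ALPL, CDH2, TWIST1 and CDH11 were at or near 0 and RUNX2 and SPARC stayed under 1 FPKM, so most bone-lineage markers were absent or low. VIM, which encodes the intermediate filament vimentin, was listed at 522, 554, 0, 410.0, 349.6 and 541 FPKM in order of time, the 0 being the 1 h library. A 0 between such values is read as a failed estimate, and genes with one were not tested. Of 13 markers of other cell types, SNAP25 alone reached 1 FPKM on average (14.9 to 22.1 FPKM), and their summed level was 15.2 to 22.8 FPKM. PAN3 itself was listed at 1.16, 1.33, 0.636, 0.40, 2.40 and 0 FPKM in order of time; its mean lay under the minimum of 1 FPKM, so it was not tested. PAN2, the catalytic partner, was at 8.50 to 11.9 FPKM.

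Within 6 h some cytoplasmic messages fell and others rose relative to the rest, and which group was larger depended on how the libraries were scaled. Values were taken as log2(FPKM + 0.1) and centred on the median of each library, and a straight line over the 6 times was fitted in limma to 8769 genes. At a Benjamini-Hochberg adjusted p under 0.05, 1167 genes were called lower with time, 13.3% of those tested, and 2137 were called higher, 24.4%. Slopes are given in log2 units per hour. The median slope was 0.0477, since the library median itself fell from 3.61 at 0 h to 3.24 at 6 h on the log2 scale. Without centring the median slope was -0.0123 and the calls were 1733 lower and 754 higher. Centring on the 75th percentile gave 1620 lower and 1041 higher, and quantile normalisation 1211 lower and 1231 higher. Higher and lower therefore mean relative to the median of the library throughout.

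The number of slope calls depended most on the 6 h library, which is also the far end of the fitted line. Leaving it out shortens the range of times, which by itself lowers the power to call a slope. What the values of that library add beyond this was not tested. Without the 6 h library 835 genes were called, 301 higher and 534 lower, against 3304 with all 6, and leaving out the 0 h or the 0.5 h library gave 2011 and 2084 calls.

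**Figure D1:**
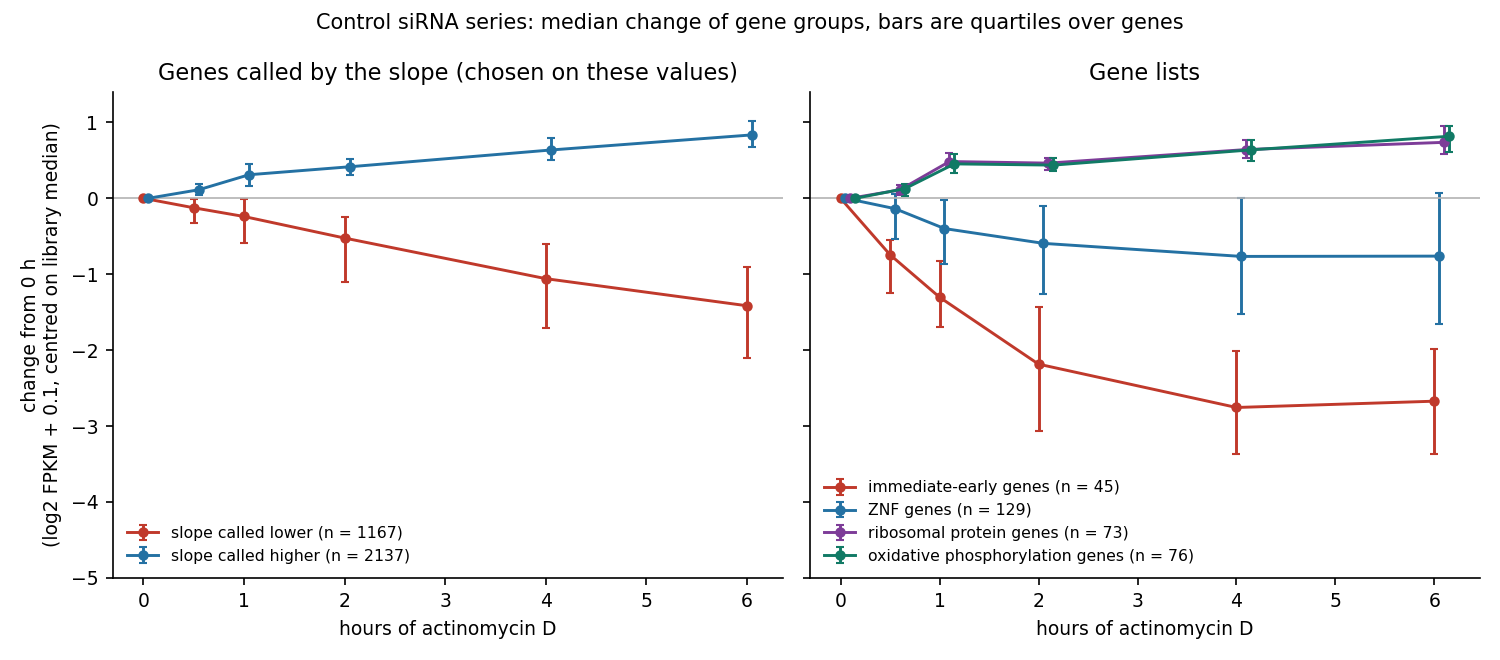
Median change from 0 h (log2(FPKM + 0.1), centred on the library median) against hours of actinomycin D, with bars for the quartiles over genes. Left, the genes called by the slope, whose direction the choice fixes; right, 4 gene lists: immediate-early genes reach -2.19 at 2 h and are at -2.67 at 6 h, ZNF genes level off near -0.76, and ribosomal protein and oxidative phosphorylation genes end at 0.74 and 0.82.

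The 1167 genes called lower were chosen by a straight line through these values, so the form of their average course is no result. They had median centred changes of -0.13, -0.24, -0.52, -1.06 and -1.42 at the 5 times from 0.5 to 6 h. The quartiles at 6 h were -2.11 and -0.91. Of these genes, 827 fell by more than 1 log2 unit by 6 h, and a median of 11.3%, 21.3%, 46.1% and 78.5% of that fall had taken place by 0.5, 1, 2 and 4 h. At 1 h 88 of the 827 had completed 50% or more of their fall, and at 2 h 371 had. Only 300 of the 827 were lower at every successive time. The largest fall came in the interval ending at 0.5, 1, 2, 4 and 6 h in 41, 55, 229, 301 and 201 genes. Divided by the hours in the interval, the fastest fall came there in 232, 234, 246, 57 and 58 genes, a count in which scatter between libraries weighs more in the shorter intervals. For the 292 called genes with a smaller fall, 0.5 to 1 log2 unit by 6 h, the medians were 3.79% by 1 h and 29.2% by 2 h. Their quartiles at 1 h were -15.0% and 19.7%, and a difference in timing from the 827 was not tested.

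Immediate-early genes, induced by growth signals with no need of new protein and whose messages are classic fast-decay substrates, had the lowest median slope of the lists with 10 or more tested members. Of 50 listed, 45 were tested, 26 were called lower by the slope and 1 higher, and the median slope was -0.40 log2 units per hour. Their median rate of change was -1.49 log2 units per hour from 0 to 0.5 h, -0.94 from 0.5 to 1 h, -0.83 from 1 to 2 h, -0.17 from 2 to 4 h and -0.04 from 4 to 6 h. Most of the group's loss came before 2 h, and it was nearly level from 4 to 6 h. All 3 late libraries lay below all 3 early ones, on the centred scale, for 39 of the 45, against 16.0% of all genes tested.

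NR4A1, an orphan nuclear receptor, stood at 301, 177, 132, 34.4, 25.2 and 23.8 FPKM in order of time. Its late values lay far below its early ones, and its slope was -0.55 ± 0.12 log2 units per hour (SE), with a limma adjusted p of 0.0176. MYC, the growth-promoting transcription factor, went 128, 71.2, 44.2, 16.3, 10.8 and 8.29 FPKM. It had 34.4% of its first value left at 1 h and 6.46% at 6 h, and fell in every interval (slope -0.57 ± 0.11, limma adjusted p 0.0106). RHOB, a small GTPase of actin and endosome control, went 340.0, 194, 129.7, 48.9, 19.3 and 15.1 FPKM, also without overlap between early and late libraries (slope -0.69 ± 0.093, limma adjusted p 0.00609).

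Several of the fastest courses missed the threshold of the straight line. JUNB, an AP-1 transcription factor, was listed at 63.5, 14.2, 6.79, 3.63, 3.97 and 4.30 FPKM. Only 22.3% of its first value remained at 0.5 h, and the values from 2 h on lay level (slope -0.41 ± 0.19, limma adjusted p 0.142). IER2, another immediate-early factor, was at 111, 46.2, 24.2, 11.5, 11.7 and 17.7 FPKM, with its highest late value at 6 h (limma adjusted p 0.172). NFKBIA, which encodes the inhibitor that ends NF-κB signalling, was at 20, 3.63, 1.28, 0.614, 0.192 and 0.439 FPKM, so that 18.1% remained at 0.5 h (limma adjusted p 0.0651). FOS, the AP-1 partner of JUN proteins, was at 5.56, 1.95, 2.03, 0.778, 0.797 and 0.792 FPKM, level from 2 h on, and was not called (limma adjusted p 0.0953). In all 4 genes the early and late libraries did not overlap.

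Among 13 tested messages known from other cells as short-lived, 5 were called lower and 1 higher. JUN, HES1, MCL1 and ATF3 fell along with MYC. HES1, a Notch-induced repressor, had 36.9% left at 0.5 h and 5.15% at 6 h. MCL1, a short-lived survival protein of the BCL2 family, went 149, 97.2, 67.8, 42.0, 30.3 and 27.0 FPKM, a slower loss with no overlap between early and late (slope -0.32 ± 0.067, limma adjusted p 0.0141). The exceptions were CCND1 and ODC1. CCND1, the G1 cyclin, stayed between 32.3 and 38.4 FPKM in all 6 libraries. ODC1, the first enzyme of polyamine synthesis, went 199.9, 212, 220.4, 232, 230.2 and 223 FPKM and was the list's 1 call higher (limma adjusted p 0.0301); under quantile normalisation its slope was negative.

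**Figure D2:**
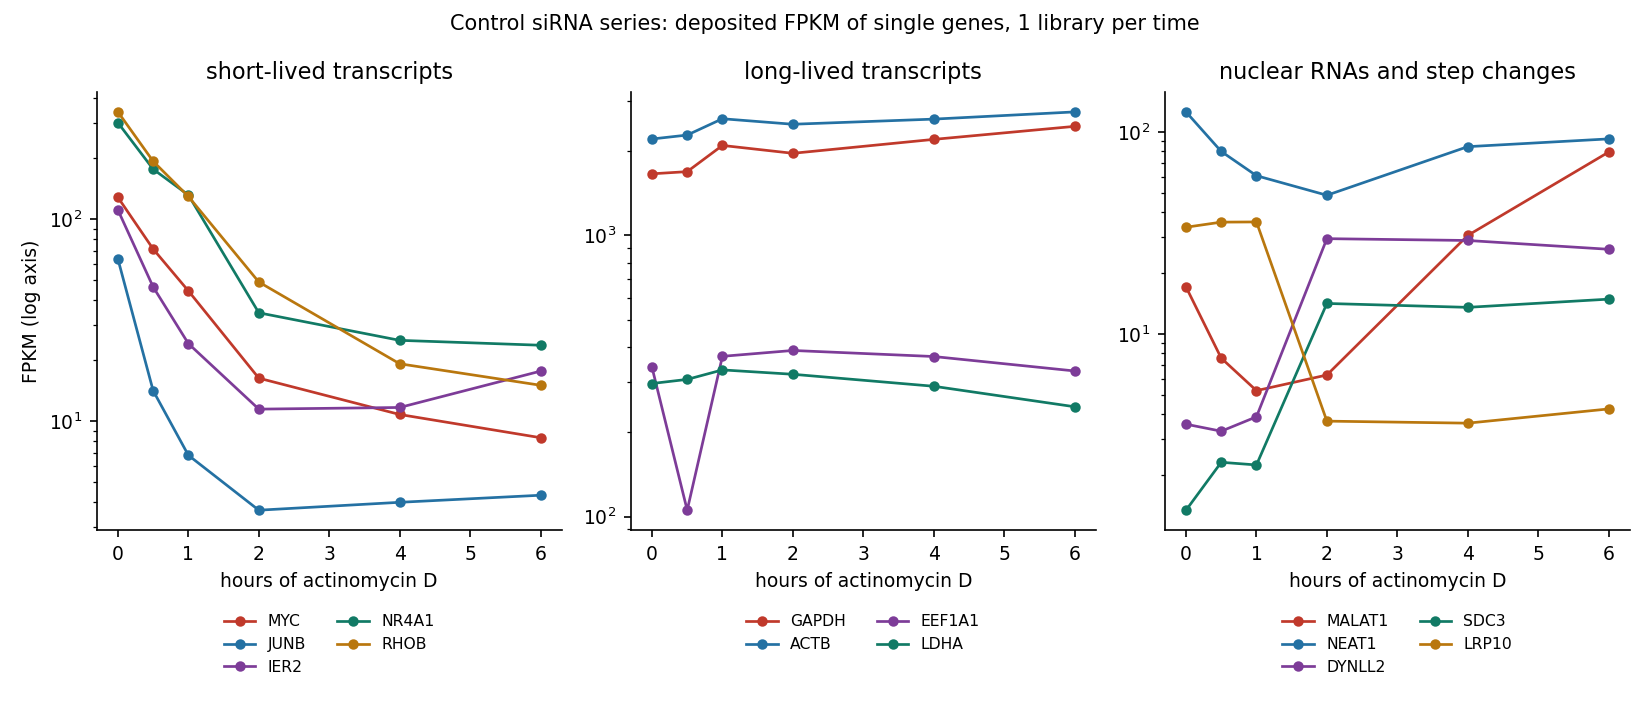
Deposited FPKM (log axis) against hours of actinomycin D, 1 library per time. Left, short-lived messages such as MYC (128 to 8.29 FPKM) and JUNB (63.5 to 4.30 FPKM); middle, messages known as long-lived, with EEF1A1 at 105 FPKM at 0.5 h only; right, MALAT1 and NEAT1, which dip and then climb, and LRP10, DYNLL2 and SDC3, which change at once between 1 and 2 h.

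Of 10 tested KLF genes, Krüppel-like zinc-finger transcription factors, 6 were called lower and none higher, with a median slope of -0.33. The lists overlap: KLF2, KLF4, KLF6 and KLF10 are immediate-early genes too, and 3 of the 6 calls are theirs. KLF10 had 36.6% of its first FPKM left at 1 h and 9.47% at 6 h. Of 129 tested ZNF genes, mostly zinc-finger repressors of low expression, 38 were called lower and 4 higher. On the centred scale the late libraries lay below the early ones for 50. Their median course slowed with time, reaching -0.59, -0.77 and -0.76 at 2, 4 and 6 h. All genes tested gave 13.3% called lower, 24.4% called higher and 16.0% with late below early. ZNF574 was at 7.11, 3.92, 2.01, 0.459, 0.211 and 0.373 FPKM, an early fall to near the floor of the measurement (slope -0.61 ± 0.17, limma adjusted p 0.035). The ZNF list had a median expression of 3.12 FPKM against 11.1 for all genes tested, and over 8303 genes the slope and the mean FPKM had a Spearman correlation of 0.293; the part of the expression level in the list's result was not tested.

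Some regulators of mRNA decay were among the genes called lower. Of 13 tested genes for AU-rich element binding proteins, Pumilio proteins and BTG/TOB deadenylase recruiters, 4 were called lower and none higher, BTG2, ZFP36L2 and TOB1 among them. All genes gave 13.3% lower and 24.4% higher. Without the 6 h library 2 of the 13 were called lower, and BTG2 is on the immediate-early list too. BTG2, which brings the CCR4-NOT deadenylase to its targets, went 17.1, 11.5, 6.51, 3.15, 1.61 and 1.37 FPKM (slope -0.53 ± 0.089, limma adjusted p 0.00857). The early and late libraries did not overlap.

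Of 18 tested ATF4 stress response genes 7 were called lower and 5 higher, and of 25 p53 target genes 9 lower and 2 higher, where all genes gave 13.3% and 24.4%. The calls higher depend on the scale: for the ATF4 list 2 were called without centring and 0 under quantile normalisation, with 9 and 7 lower. For the p53 list 0 were called higher on both scales, with 11 and 9 lower. Without the 6 h library 4 genes of each list were called lower and 0 higher. The 5 of the ATF4 list called higher were ATF4, NUPR1, PHGDH, PSAT1 and SLC3A2, of which PHGDH and PSAT1 make serine and SLC3A2 carries amino acids. The 7 called lower were TRIB3, CEBPB, CEBPG, ATF3, SESN2, DDIT4 and CHAC1. CEBPB, a transcription factor, had 31.0% of its first FPKM left at 1 h and 3.93% at 6 h, and CHAC1, which degrades glutathione, had 13.9% and 2.39%. DDIT4, an inhibitor of mTORC1, was at 150.2, 52.8, 32.0, 16.1, 10.3 and 10.6 FPKM. It lost most in the first interval, and its early and late libraries did not overlap (slope -0.49 ± 0.13, limma adjusted p 0.0316). CDKN1A, the p21 cell-cycle inhibitor, followed an even decline of 195, 166, 162, 125, 90.6 and 62.6 FPKM (slope -0.21 ± 0.018, limma adjusted p 0.00313). Of 20 tested genes of the ER chaperone and unfolded protein list 10 were called higher and 1 lower. The 1 was XBP1, the transcription factor of that response, at 123, 108, 98.9, 49.3, 32.0 and 18.6 FPKM, while HSP90B1, an ER chaperone, was at 289, 336, 348, 401, 474 and 495 FPKM. The calls of the ER list depended on the scale too. They were 5 higher and 3 lower without centring, and 3 and 2 under quantile normalisation. Without the 6 h library 3 genes of that list were called higher and 1 lower. BHLHE40, a repressor of the clock, was the 1 call among 7 tested circadian genes, with 29.1% left at 1 h and 4.23% at 6 h.

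Cell-cycle messages were mixed. Of 33 tested G2 and M phase genes 6 were called lower and 3 higher, near the shares of all genes in the first case and below them in the second. AURKA, the mitotic kinase, was at 29.7, 31.7, 26.9, 17.2, 13.1 and 9.35 FPKM, with the loss after 1 h (slope -0.24 ± 0.030, limma adjusted p 0.00536). UBE2C, the ubiquitin-conjugating enzyme of the anaphase-promoting complex, went from 87.9 to 37.4 FPKM (slope -0.14 ± 0.018). Of 32 S phase genes 9 were called higher and 3 lower, 2 and 5 without centring and 3 and 7 under quantile normalisation, so the balance of the calls flipped with the scale. CDT1, the replication licensing factor, was among the 3 (20.9 to 5.48 FPKM), and RRM1, the large subunit of ribonucleotide reductase, was called higher at 74.6 to 87.5 FPKM. The G2 and M phase count rose to 14 lower and 0 higher without centring.

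Several lists held a larger share of calls higher than the 24.4% of all genes. Of 76 tested nuclear genes of oxidative phosphorylation 46 were called higher and none lower, and of 73 cytoplasmic ribosomal protein genes 35 and none. Glycolytic enzymes gave 7 of 14 higher and none lower, and extracellular matrix genes 11 of 20 and none. Other lists lay near the share of all genes, with 8 of 31 proteasome subunit genes higher and 1 lower, and 7 of 31 initiation and elongation factor genes higher and none lower. B2M, the light chain of MHC class I, was at 966, 1058, 1125, 1297, 1468 and 1554 FPKM, higher in each successive library (slope 0.17 ± 0.026, limma adjusted p 0.00747). GAPDH, a glycolytic enzyme, was at 1657, 1687, 2091, 1960.2, 2197 and 2444 FPKM, with the 1 h library above the 2 h library (slope 0.15 ± 0.030, limma adjusted p 0.0138). COL5A1, a fibrillar collagen chain, was at 33.4, 37.8, 35.6, 43.0, 48.5 and 54.2 FPKM, with late above early (slope 0.17 ± 0.020, limma adjusted p 0.00478).

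These calls depend on the choice of scale. Without centring 20 of the 76 oxidative phosphorylation genes and 9 of the 73 ribosomal protein genes were called higher, with none and 1 lower. Quantile normalisation gave 8 higher and 2 lower for the first list and 3 higher and 5 lower for the second. Few ribosomal protein genes were thus called either way on that scale, and their median slope was 0.00533. Among all 8769 genes it gave 1231 higher and 1211 lower. The slopes of GAPDH, ACTB, ALDOA and LDHA became negative. Without the 6 h library 2 and 3 members were called higher. Under quantile normalisation glycolytic enzymes gave 1 higher and 3 lower and proteasome subunit genes 0 and 8, against 4 and 1, and 1 and 3, without centring. Extracellular matrix genes, 11 of 20 higher with median centring, gave 8 higher and 1 lower under quantile normalisation and 7 and 1 without centring. Of that list 5 were called higher and 0 lower without the 6 h library. Of the immediate-early genes 28 were called lower without centring, 24 under quantile normalisation and 20 without the 6 h library, against 26 with median centring.

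Of 73 tested mitochondrial ribosomal protein genes 11 were called higher and 11 lower with median centring, where all genes gave 24.4% and 13.3%. The share called lower was thus near that of all genes and the share called higher below it. Their median slope was 0.012, below the median of all genes. This balance depends on the scale, with 2 higher and 22 lower without centring, 4 and 22 with the 75th percentile and 1 and 27 under quantile normalisation. Among all 8769 genes these scales gave 754 higher and 1733 lower, 1041 and 1620, and 1231 and 1211. Without the 6 h library 0 were called higher and 1 lower. MRPL36, a protein of the large mitochondrial subunit, was at 166, 159.5, 167, 95.6, 87.8 and 50.7 FPKM, level through 1 h and falling afterwards (slope -0.23 ± 0.037, limma adjusted p 0.00807). MRPS28, of the small subunit, was at 45.7, 44.9, 42.1, 73.8, 59.0 and 90.1 FPKM, with every late library above every early one (slope 0.22 ± 0.044, limma adjusted p 0.0128). No difference between this list and the others was tested.

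**Figure D3:**
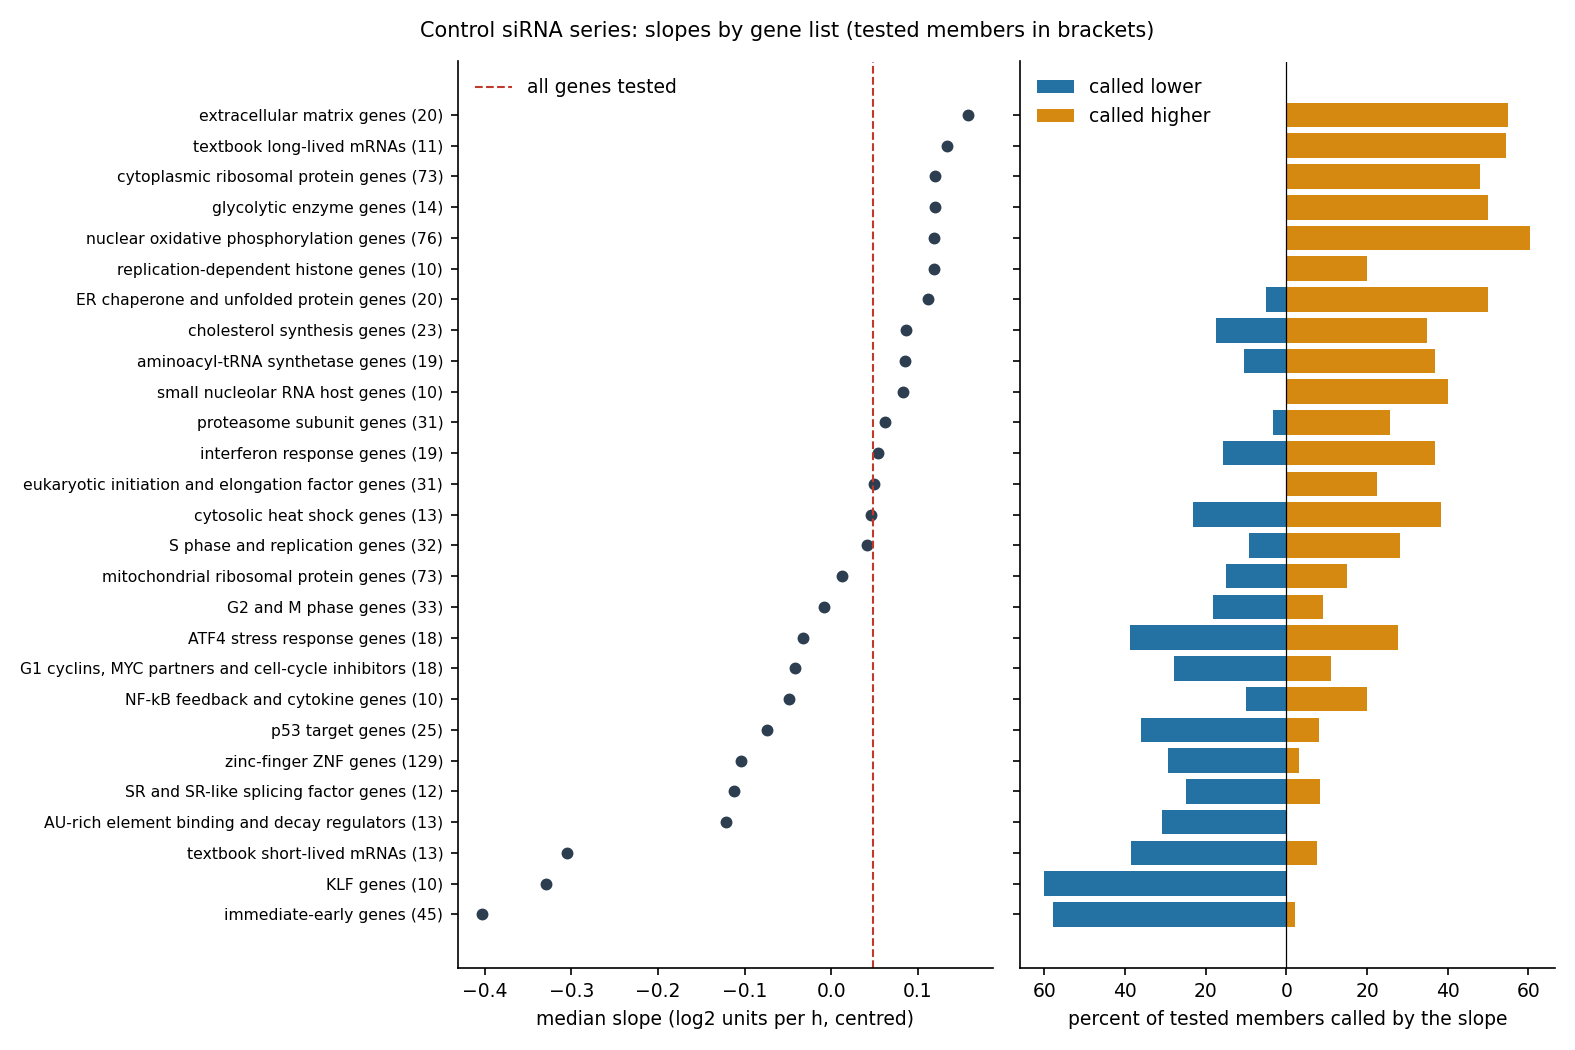
Left, median slope (log2 units per hour, centred) of each gene list with 10 or more tested members, numbers in brackets, and of all genes tested (dashed, 0.0477). Right, percent of the tested members called lower (blue) and higher (orange) by the slope: immediate-early and KLF genes stand at the low end, and extracellular matrix, ribosomal protein and oxidative phosphorylation genes at the high end.

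The comparison of the early libraries (0, 0.5 and 1 h) with the late ones (2, 4 and 6 h) as 2 groups called few genes; in this comparison loss inside each group counts as spread. It called 28 genes lower, 0.319% of those tested, and 7 higher, 0.0798%; 3164 genes had an unadjusted p under 0.05. By order alone, on the centred scale, every late value lay below every early value in 1405 genes, 16.0%, and above in 2408, 27.5%. On the deposited FPKM the balance was the reverse, with 2065 genes below and 1279 above. The 28 and 7 calls depend on each library but that of 2 h. Without the 0, 0.5, 1, 4 or 6 h library 10, 3, 9, 6 and 3 genes were called, and without the 2 h library 1443 were. With 0 and 0.5 h set against 4 and 6 h the count was 2790.

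LRP10, a receptor of the LDL receptor family and one of the 28, had a step between 1 and 2 h. It stood at 33.7, 35.7, 35.8, 3.70, 3.61 and 4.25 FPKM. It was flat on both sides of the step, and late minus early was -2.94 ± 0.15 on the centred log2 scale (SE), with a limma adjusted p of 0.00161. DNAJB1, an HSP40 chaperone, was at 48.2, 34.9, 27.9, 12.2, 8.64 and 6.83 FPKM, a decline without such a step (-1.77 ± 0.23, limma adjusted p 0.0494).

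Among the 7 genes called higher, DYNLL2, a dynein light chain, was at 3.57, 3.30, 3.88, 29.6, 29 and 26.2 FPKM (3.17 ± 0.14, limma adjusted p 0.00115). SDC3, a heparan sulphate proteoglycan of the cell surface, was at 1.34, 2.31, 2.24, 14.1, 13.5 and 14.9 FPKM (3.05 ± 0.26, limma adjusted p 0.0237). EPRS, a bifunctional aminoacyl-tRNA synthetase, went from 51.6 to 56.8 FPKM in the early libraries to 84.4 to 87.7 in the late ones (limma adjusted p 0.0494). In the other series the late minus early change of DYNLL2 was -0.76 (long-labelled), 0.08 (short-labelled) and -1.52 (both-labelled), and the difference of the control course from their mean was 3.88 ± 0.72 (limma adjusted p 0.029).

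Curvature, the squared term of a parabola over the 6 times, called 0 genes in limma, with 846 at an unadjusted p under 0.05. The smallest p values belonged to early, levelling losses on the positive side. MIDN, a nuclear protein that leads other proteins to the proteasome, was at 26.5, 11.8, 7.06, 2.78, 1.55 and 2.82 FPKM. CSRNP1, an immediate-early nuclear protein, was at 14.7, 3.37, 1.18, 0.291, 0 and 0.149 FPKM. On the negative side stood courses with their highest values before the end: HNRNPC, a nuclear RNA-binding protein, was at 63.0, 68.8, 89.4, 91.4, 84.0 and 44.0 FPKM, and C10orf76 held 15.0 to 16.6 FPKM through 2 h before 11.8 and 2.49. None of these passed adjustment.

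Of 3 tested nuclear-retained noncoding RNAs 1 was called, MALAT1. It was at 17.1, 7.58, 5.24, 6.26, 30.7 and 79.4 FPKM, so that it dipped to 1 h and was highest at 6 h (slope 0.59 ± 0.15, limma adjusted p 0.026). It was not called without centring, nor without the 0.5, 4 or 6 h library. NEAT1, the scaffold of paraspeckles, was at 126, 80.0, 60.7, 48.5, 84.5 and 92.3 FPKM and was not called (limma adjusted p 0.546). TUG1, another such RNA, was at 14.6, 15.0, 7.27, 13.5, 5.91 and 12.4 FPKM, with early and late libraries overlapping (limma adjusted p 0.925). Of 5 tested small nucleolar and Cajal body RNAs 3 were called higher and 1 lower. SCARNA9, a guide RNA of Cajal bodies, was at 0.739, 4.63, 2.96, 6.06, 12.8 and 32.3 FPKM, and SCARNA2 and SCARNA17 were highest at 6 h too, at 7.78 and 15.6 FPKM. These were the 3 called higher, SCARNA12 was called lower, and SNORA6, at 8.34 to 16.7 FPKM, was not called. MALAT1 and these 3 RNAs were highest at 6 h, the time whose removal changed the number of slope calls most; their part in the other results was not tested.

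A sequence feature was looked for in the 3′ UTRs of the genes lost faster. For 8303 of the 8769 genes (94.7%) a coding GENCODE v29 transcript with a 3′ UTR was matched through the RefSeq accession with the highest FPKM. The motif TGTANATA, with N for any base, is the octamer that proteins of the Pumilio family are known to bind, after which they bring in CCR4-NOT. TTATTTATT is the core of AU-rich elements bound by the ZFP36 family. Both were searched on the mRNA strand as DNA letters, together with ATANATGT, the first octamer read backwards, as a match of equal composition. The octamer was absent from the matched 3′ UTRs of other falling genes described above, among them JUNB, IER2, ATF3, BTG2, CEBPB, DDIT4 and KLF10. Sites in some genes that hold a motif, called or not, are shown for their context, in GRCh38, with the motif in capitals. They come from the reference and not from these libraries.
NR4A1, chr12:52059212-52059235, plus strand: cgccgtgcTGTAAATAagcccagt
HES1, chr3:194138417-194138440, plus strand: actatattTGTATATAttttatat
NFKBIA, chr14:35401569-35401592, minus strand: gtaaatggTGTACATAatgtattg
ZNF574, chr19:42081361-42081384, plus strand: taagcatcTGTACATActgtgtcc
JUN, chr1:58781544-58781567, minus strand: actgtgtaTGTACATAtatatatt
MCL1, chr1:150576667-150576690, minus strand: gtaaaaatTGTATATAtttttaca
FOS, AU-rich nonamer, chr14:75282062-75282086, plus strand: tttttaatTTATTTATTaagatgga

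The octamer was more frequent among falling messages. It occurred in the 3′ UTR of 26.3% of all matched genes, 36.0% of those called lower, 15.7% of those called higher and 28.4% of those not called. The reversed octamer occurred in 21.0%, 24%, 15.0% and 22.7%, and the AU-rich nonamer in 7.94%, 8.57%, 5.63% and 8.72%. Genes called higher also had shorter 3′ UTRs, with a median of 653 bases against 1182 in genes called lower, which leaves fewer chances of any match, so the shares were read within length classes. Among UTRs of up to 500 bases 25.8% of the 178 genes with the octamer were called lower, against 9.4% of the 2329 without. From 500 to 1000 bases the shares were 21.0% and 12.9%, from 1000 to 2000 bases 19.8% and 13.2%, and above 2000 bases 16.5% and 14%. For the reversed octamer the shares with and without lay within 2 percentage points of each other in every class, and for the nonamer the sign of the difference varied. These shares are descriptions without a test, a match is no proof of binding, and the motifs were chosen after the values had been seen.

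**Figure D4:**
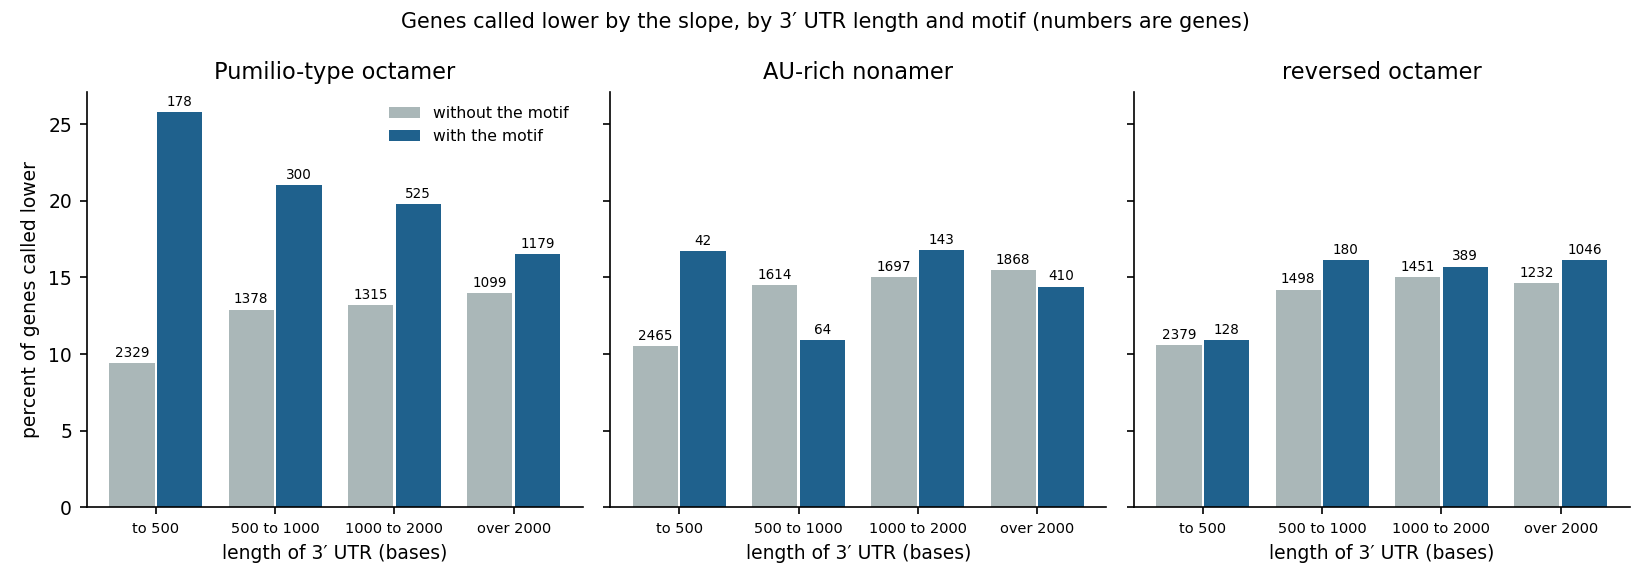
Percent of genes called lower by the slope against length of the 3′ UTR in bases, for genes without (grey) and with (blue) each motif; numbers above the bars are genes. With the Pumilio-type octamer the share is higher in each class, by most in the shortest (25.8% against 9.4%), while the reversed octamer shows near-equal bars.

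In all 4 series the median slope fell from 0 to 1 to 2 or more copies of a motif in the 3′ UTR, and this was not particular to the octamer. In genes tested in all 4 series the median slope was 0.0605 in the control libraries with no copy, 0.0135 with 1 copy and 0.000857 with 2 or more. The long-labelled series gave 0.0509, -0.00557 and -0.0225, the short-labelled 0.0488, -0.0086 and -0.0288, and the both-labelled 0.0497, -0.0119 and -0.0299, all in log2 units per hour. For the reversed octamer the control series gave 0.0532, 0.0343 and 0.0273, the long-labelled 0.0423, 0.0224 and -0.00378, the short-labelled 0.0407, 0.0164 and 0.0103, and the both-labelled 0.0417, 0.012 and -0.00162. For the nonamer they were 0.0502, 0.0289 and -0.00371 in the control series, and with 2 or more copies -0.0194, -0.00745 and -0.0129 in the others. The fall did not go on with further copies: over all matched genes the control series gave -0.00371 with 2 nonamers (87 genes) and 0.0175 with 3 or more (41 genes). Genes with more copies also had longer 3′ UTRs, with medians of 718, 1800 and 3258 bases for the octamer and 763, 2159 and 3654 for its reverse. Slopes by copy number were not taken within length classes. By presence alone, control median slopes with and without the octamer were 0.00831 and 0.0758 in the shortest class. They were -0.0102 and 0.0601, 0.0108 and 0.0401, and 0.00958 and 0.0331 in the longer ones. For the reversed octamer they were 0.055 and 0.0731, 0.0373 and 0.0492, 0.0311 and 0.0318, and 0.0251 and 0.0233. The nonamer had the lower value with the motif in each class.

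Transcript length marked the 1 h library. Between 0.5 and 1 h the median centred change was 0.237 in the shortest class of transcripts (217 to 1878 bases) and -0.12 in the longest (4476 to 27174 bases), and between 1 and 2 h it was -0.051 and 0.112. Over 8303 genes of these same libraries the Spearman correlation of length with the change was -0.354 in the first of these intervals and 0.179 in the second. In other intervals it lay between -0.132 and -0.068. Short messages such as those of ribosomal proteins (median rate 0.72 log2 units per hour from 0.5 to 1 h and -0.03 from 1 to 2 h) followed the same turn. Without the 1 h library 52 of the 73 ribosomal protein genes and 52 of the 76 oxidative phosphorylation genes were called higher, 24 of 45 immediate-early genes lower, and 3442 genes in all. Other single libraries held low estimates of abundant genes, such as EEF1A1, the translation elongation factor, at 105 FPKM at 0.5 h between 339.8 and 372.

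**Figure D5:**
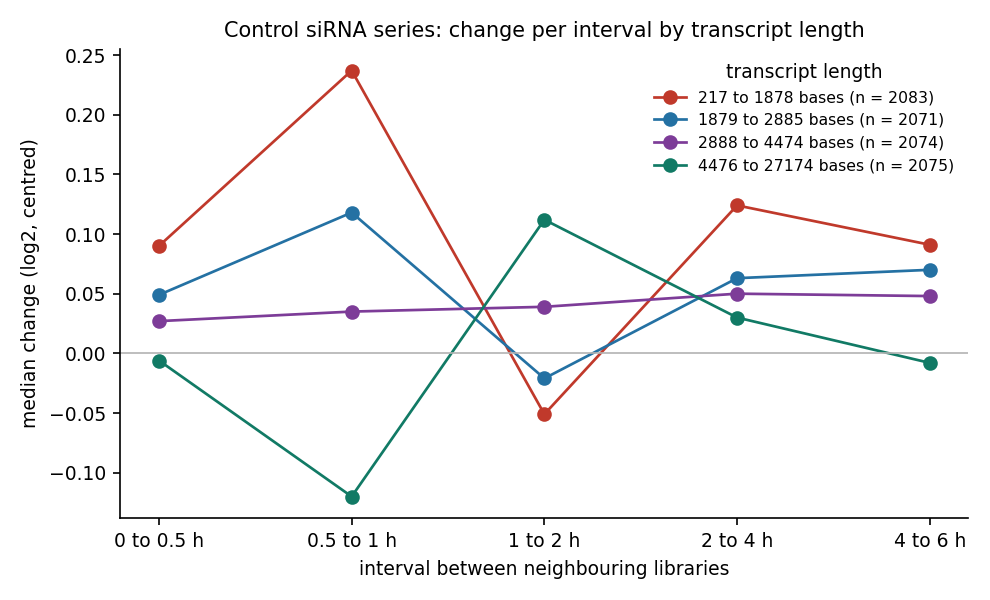
Median centred log2 change between neighbouring libraries for 4 classes of transcript length. The classes part most between 0.5 and 1 h (0.237 for the shortest, -0.12 for the longest) and cross over between 1 and 2 h.

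Most genes called lower in the control course had a slope of the same sign in the other siRNA series. Of the 1167 genes called lower 1051 were tested in all 4 series; the slope had the same sign in 1012 of them in the long-labelled, 961 in the short-labelled and 958 in the both-labelled series, and in 905 in all 3. Of the 2137 called higher 1995 were tested, with 1926, 1841 and 1861 of the same sign. The share of all tested genes with either sign in those series was not taken, so these counts stand without a background. The median slope of the genes called lower was -0.237 in the control series, where they were chosen, and -0.173, -0.164 and -0.157 in the others. In contrast, of the 6 genes with an upward step that were tested in all series, only 2 had a slope of the same sign in all 3.

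The control course differed from the mean of the other 3 series in the late minus early change of 52 of 7712 genes, 0.674%, by limma at an adjusted p under 0.05; 35 were lower and 17 higher in the control. The fit compares the series time by time, with each time as a term. A straight line in place of the early and late phases gave 271, of which 214 were lower, and without the 2 h control library there were 251. Without any other single control library there were 6 to 18. SESN2, a stress-induced inhibitor of mTORC1, was at 10.4, 6.09, 3.20, 1.62, 0.909 and 1.02 FPKM in the control libraries. Its late minus early change was -2.04 there and -1.25, -0.43 and -0.35 in the long-, short- and both-labelled series, so that the control differed by -1.39 ± 0.29 (limma adjusted p 0.0391). FARSA, the alpha subunit of the phenylalanyl-tRNA synthetase, changed by -0.70 against -0.25, -0.08 and -0.05, and MRPL36 by -0.90 against -0.44, -0.14 and -0.08. AURKA changed by -0.97 against -0.58, -0.34 and -0.38. All 6 libraries of each series share a transfection label, so siRNA and series cannot be told apart.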

How the data were processed

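Cytoplasmic RNA, isolated with the RNeasy Mini kit, was sequenced from standard Illumina libraries, per the labels' protocols. Per the submitters' processing notes, TopHat 1.3.3 and hg19 were used for alignment; what made the FPKM, and on which annotation, is not given in the sources used here. The authors deposited 1 table of FPKM for 37382 RefSeq transcripts of 22925 gene symbols; 154 transcripts without a symbol held 0.0126% of the control FPKM and were left out. The 913 dash cells in the control columns were read as missing. Read totals cannot be recovered, so the depth is unknown and counting error is left out. FPKM were summed per gene. A control mean of 1 FPKM or more was reached by 9748 genes; 215 holding a dash were dropped, as were 764 listed at 0 beside a neighbouring time at 1 FPKM or more, and 8769 remained, of which 29 hold a 0. Reads shared by near-identical gene copies, as in ribosomal protein genes, may have been split or dropped.

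Values were log2(FPKM + 0.1) minus the library median, so fold changes of low genes are understated. Early against late, a straight line, a parabola and the control against the other 3 series (7712 genes in all 4) were fitted in limma 3.58.1 (R 4.3.3) with a mean-variance trend, two-sided, and Benjamini-Hochberg adjustment over all genes; calls are at an adjusted p under 0.05. The limma fits were tested on simulated data. Named genes followed a rule: among early-late calls that reach 5 FPKM without overlap the 10 lowest and 10 highest differences, for curvature the 5 smallest p in each direction, all textbook short-lived and long-lived messages tested, up to 4 members of each other list by smallest early-late p, PAN3 and PAN2; a few genes it picks are left unreported. TOB1, SNORA6, and the ATF4 and KLF genes named without values, were named after their calls had been seen. Members and lists were chosen with earlier results of these data known. Alternatives were pseudocounts of 1 and 0.01, other filters and scalings, zeros kept, no trend, other times, and leaving out each control library.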

Additional observations from a re-analysis of the deposited data

Results flagged for a closer look

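The summed FPKM of 10 mesenchymal markers was 64.2 at 1 h, far from the other 5 control libraries (417 to 617), because VIM was listed at 0 there. About 1 in 20 groups of this size is flagged by chance.

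In 9 of the named genes the late minus early change of the control series differed from the mean of the other 3 series by limma at an adjusted p under 0.05. Among all 7712 genes tested 52 did, 0.674%. Many named genes were chosen by the early-late change of this same control series, which favours such calls, so the 9 are no independent result. On the log2 scale the difference, control minus the others, was -1.52 for ZNF692, -1.39 for SESN2, -0.708 for MRPL36, -0.598 for FARSA and -0.561 for AURKA. It was 0.549 for EPRS, 1.75 for PSMD12, 3.46 for SDC3 and 3.88 for DYNLL2. ZNF692, a zinc-finger gene, was level within both phases of the control series (8.43 to 9.39 FPKM early, 3.9 to 4.03 late). PSMD12, a proteasome subunit, was at 25.6 FPKM at 0 h, 7.21 at 0.5 h and 7.05 at 1 h and between 30.0 and 33.9 in the late libraries, so that 2 low early values set its difference.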

How the results depend on the processing

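Of the 4 counts, 35 genes differed between early and late libraries, 3304 had a slope, 0 had curvature (0 in every alternative) and 52 differed between the control and the other series. The early-late count was 126 with a pseudocount of 1, 3 with 0.01, 4 with a minimum mean of 0.1 FPKM, 3 with a minimum of 5 FPKM, 3 uncentred, 3 centred on the 75th percentile, 2 under quantile normalisation, 66 with the filter on all 24 libraries, 2790 for 0 and 0.5 h against 4 and 6 h, and 3 to 1443 with 1 library left out. The slope count was 5847 without a filter on the mean, 835 for 0 to 4 h only and 835 to 3442 with 1 library left out. The count of differences from the other series was 33 without that filter, 89 under quantile normalisation, 271 with a straight line in place of phases, and 6 to 251 with 1 library left out. The early-late changes of the 17 named genes kept their sign in every refit; 128 refits passed the threshold and 170 did not.

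Slopes of messages with textbook lifetimes kept their sign in all but 16 refits, most of them on a new scale. Under quantile normalisation they turned to -0.014 for CCND1, -0.030 for ODC1, -0.018 for GAPDH, -0.018 for ACTB, -0.10 for LDHA, -0.030 for ALDOA and -0.069 for TUBA1B. Uncentred they were -0.021 for CCND1, -0.052 for LDHA and -0.014 for TUBA1B, and with the 75th percentile -0.0100 for CCND1, -0.041 for LDHA and -0.0039 for TUBA1B. LDHA was at -0.019 with a minimum of 5 FPKM and between -0.011 and 0.054 with 1 library left out, and ZFP36 between -0.12 and 0.045, in both cases with the odd sign without the 0 h library. The share of genes called lower with the Pumilio-type octamer was 30.5 to 37.6% over all alternatives, added after the data had been seen, and that of genes called higher 13.4 to 21.2%. The cause of these changes was not tested.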
